A study of Homo sapiens with 4 samples.

Results

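The genes described here are SREBF2 and 7 genes of cholesterol synthesis and its feedback control that are known targets of its protein: HMGCS1, IDI1, FDFT1, SQLE, LSS, DHCR7 and INSIG1. They were taken by name from the deposited expression tables, and all 8 were found among 26485 gene identifiers. The RNA came from SW1736 and 8505C, 2 established lines of anaplastic thyroid cancer kept in medium with fetal bovine serum. Each line was given vehicle (DMSO) or 1.5 µM DHT for 24 h, DHT being dihydrotanshinone, a compound of Salvia root, in this series. There is 1 library per line and treatment (4 in total), and hence no difference below has a replicate check, an error or a p-value.

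Cells make cholesterol from acetyl-CoA through mevalonate, isoprenoid units and squalene. SREBP-2, the product of SREBF2, is a transcription factor held in the membrane of the endoplasmic reticulum by SCAP and the INSIG proteins while sterols are plentiful. When sterols run low it is cut free by the MBTPS1 and MBTPS2 proteases and raises transcription of the enzymes of the pathway. INSIG1 is itself one of its targets, which closes a feedback loop, and the INSIG1 protein both retains SCAP and promotes the breakdown of a key enzyme of sterol synthesis.

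Levels are TPM, the length-scaled share of a library's transcripts that belongs to a gene, and can be compared between genes. Differences are log2 ratios of TPM + 1, and a gene was counted as different at 2-fold or more. Each count is set beside that of 11723 protein-coding genes that averaged 1 TPM or more. Aligned bases per library, read from the ratio of coverage to FPKM, ranged from 3.26 to 4.14 Gb, and the mean read depth over the 8 genes ran from 20.5 for SQLE in SW1736 with DHT to 154.8 for SQLE in 8505C with DHT. Most genes of SW1736 had lower TPM with DHT: genes averaging 5 TPM or more had a median log2 fold of -0.43 there and of -0.03 in 8505C, and values relative to this median gene are given where they change a reading. Among thyroid markers, TSHR was listed at 0 in all 4 libraries. PAX8 had 87.1 and 116.6 TPM in SW1736 (DMSO and DHT) but 0.28 and 0.24 in 8505C. FOXE1 had 60.6 and 22.3 TPM in SW1736 but 0.10 and 0 in 8505C. NKX2-1 was at 0 in SW1736 but had 69.8 and 174.1 TPM in 8505C, and HHEX ranged from 13.5 to 33.3 TPM. Of 7 thyroid markers these 4 reached a mean of 1 TPM, all but HHEX through 1 line only. Of 6 immune markers 2 did, CD68 and CD14, and the summed level of the immune list went from 15.4 to 23.2 TPM in SW1736 and from 50.9 to 67.4 in 8505C with DHT, with CD3E at 0 throughout. The part of other cell types in the results was not tested. In bulk RNA, a lower level per cell and fewer cells that carry an mRNA cannot be told apart.

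The promoters of 4 of the genes are shown to place motif matches next to the expression values. SREBF2 was taken as the regulator, and INSIG1 and HMGCS1 as the members that stood higher with DHT in SW1736. DHCR7 was taken as a member that stood at the median gene there. The bases are those before the 5′ end of each gene in the deposited tables, 5′ to 3′ on the gene's strand, from RefSeq (GRCh38.p14). Capitals mark TCACNCCAC, a form of the sterol regulatory element bound by SREBP proteins (N is any base), and CCAAT or its complement ATTGG, the box bound by the SREBP partner NF-Y.
SREBF2, chr22:41832855-41833078, plus strand: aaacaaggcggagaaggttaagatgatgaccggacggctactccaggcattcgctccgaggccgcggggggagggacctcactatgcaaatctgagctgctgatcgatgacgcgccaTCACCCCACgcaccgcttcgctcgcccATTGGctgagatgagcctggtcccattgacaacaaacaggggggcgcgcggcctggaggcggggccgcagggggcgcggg
INSIG1, chr7:155297628-155297775, plus strand: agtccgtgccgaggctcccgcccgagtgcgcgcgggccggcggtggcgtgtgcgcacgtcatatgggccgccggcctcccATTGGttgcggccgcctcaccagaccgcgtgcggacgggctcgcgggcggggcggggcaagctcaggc
HMGCS1, chr5:43313513-43313662, minus strand: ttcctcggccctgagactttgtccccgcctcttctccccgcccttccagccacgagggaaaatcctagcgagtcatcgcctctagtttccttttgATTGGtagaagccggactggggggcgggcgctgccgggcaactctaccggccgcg
DHCR7, chr11:71448432-71448643, minus strand: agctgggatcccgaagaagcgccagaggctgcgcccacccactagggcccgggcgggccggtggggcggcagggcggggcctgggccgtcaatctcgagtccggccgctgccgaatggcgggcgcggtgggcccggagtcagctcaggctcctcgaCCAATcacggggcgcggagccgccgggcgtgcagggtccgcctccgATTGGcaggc

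RefSeq entries were matched for 6 of the 8 genes, all but SQLE and FDFT1, and motifs were searched on both strands in the 250 bases before the RefSeq start nearest to the gene's 5′ end in the tables. TCACNCCAC was found in 1 of the 6, SREBF2, starting 133 bases before the RefSeq start, and 0.883% of 35116 promoter entries hold it. A CCAAT box in either orientation was present in 6 of 6, where 32.0% of all entries have one, and the GC box GGGCGG, bound by the SREBP partner Sp1, was also present in 6 of 6, beside 42.6%. INSIG1 was the only one of the 6 with the E-box CACGTG (6.345% of all entries). The windows reach past the 5′ ends in the deposited tables, so some matches lie outside the printed bases. Among them are the INSIG1 E-box, 55 bases before the RefSeq start, and the SREBF2 GC boxes, 23 and 10 bases before it. The windows of the 6 genes are rich in G and C, at 66.0% to 78.4% beside a median of 58.0% over all entries, which bears on matches to a GC box. These matches describe letters and are not evidence of binding in these cells. Other forms of the sterol regulatory element were not searched, so a promoter without a match to TCACNCCAC may still hold one.

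In SW1736, 1 of the 8 genes stood apart with DHT: INSIG1 mRNA was 2.95 times as high as with DMSO. SREBF2 and 5 of the 6 enzymes had less mRNA on the deposited scale, as most genes of SW1736 had. The median log2 fold over all genes tested was -0.42 there, and 5 of the 8 genes, INSIG1 among them, lay above the median gene. INSIG1 (chromosome 7, 155297776 to 155310235) had 14.7 TPM with DMSO and 43.5 with DHT in SW1736, and 19.2 and 18.1 in 8505C. The SW1736 library with DHT is thus the only one in which INSIG1 was above 19.2 TPM, and its place among the 8 genes was the seventh with DMSO and the second with DHT by TPM (the seventh and the first by coverage). Its log2 fold was 1.50 in SW1736, and 98.3% of the genes tested had a lower value. It was the 1 member at least 2-fold higher, where 2.78% of all genes tested were, and no member was 2-fold lower, where 15.6% were. Relative to the median gene INSIG1 stood at 1.93 and was again the 1 member 2-fold higher, beside 4.78% of genes, and it ranged from 1.30 to 1.93 over the 10 alternative settings.

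SREBF2 itself (chromosome 22, 41833079 to 41907308) had 30.8 TPM with DMSO and 20.5 with DHT in SW1736, and 72.1 and 73.1 in 8505C. The SW1736 values give a log2 fold of -0.56, close to that of the median gene, from which it differed by -0.13. INSIG1 relative to SREBF2, a ratio within a library that no scaling alters, was 0.479 in SW1736 with DMSO and 2.12 with DHT, and 0.267 and 0.247 in 8505C.

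HMGCS1 (chromosome 5, 43287470 to 43313512), the cytosolic synthase that makes HMG-CoA for mevalonate, was the second member with more mRNA in SW1736 with DHT. It went from 14.0 to 17.9 TPM there and from 57.3 to 56.4 in 8505C. Its log2 fold of 0.34 in SW1736 fell short of 2-fold, although 91.7% of the genes tested had a lower value, and it was 0.77 relative to the median gene. IDI1 (chromosome 10, 1040024 to 1049121), which interconverts the isoprenoid building blocks, stood at 44.7 and 39.2 TPM in SW1736 and at 54.2 and 46.8 in 8505C. The 2 lines had similar folds for IDI1, -0.18 and -0.21, but that of SW1736 turned to 0.24 relative to the median gene and to 0.03 with FPKM.

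**Figure D1:**
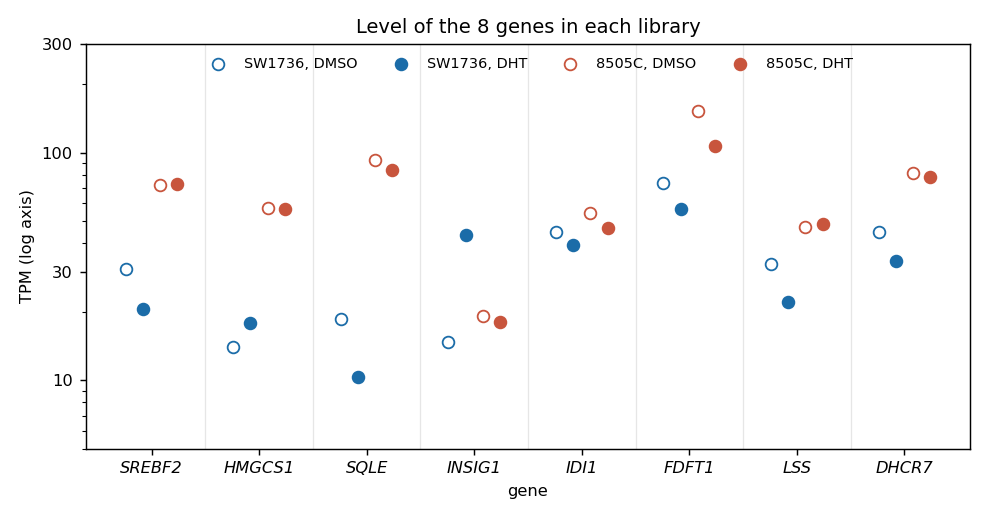
Level of each of the 8 genes in TPM (log axis), with 1 point per library: SW1736 in blue and 8505C in red, open for DMSO and filled for DHT. INSIG1 is the one gene whose SW1736 value with DHT (43.5 TPM) lies above both 8505C values (19.2 and 18.1).

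The 4 members from squalene synthesis onward were all lower in SW1736 with DHT on the deposited scale, and 2 of them, FDFT1 and DHCR7, were not so relative to the median gene. SQLE (chromosome 8, 124998478 to 125022283), the squalene epoxidase that is a rate-limiting step of the sterol branch, had the lowest fold of the 8 genes. It went from 18.6 to 10.4 TPM in SW1736, a log2 fold of -0.79, and from 93.1 to 84.1 in 8505C, one of -0.15. Relative to the median gene the SW1736 value was -0.36, and 26.1% of the genes tested lay lower. LSS (chromosome 21, 46188446 to 46228824), which closes squalene epoxide to lanosterol, went from 32.5 to 22.1 TPM in SW1736 (-0.54) and from 47.1 to 48.6 in 8505C (0.04).

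FDFT1 (chromosome 8, 11795573 to 11839309), the squalene synthase that commits isoprenoids to sterols, had the highest TPM of the 8 genes in every library, at 73.3 and 56.8 TPM in SW1736 and 152 and 107 in 8505C. By coverage it was highest in none, with mean read depths of 55.5 and 52.5 in SW1736 and 101 and 91.5 in 8505C. DHCR7 (chromosome 11, 71434411 to 71448431), the reductase of the last step of cholesterol synthesis, stood at 44.6 and 33.6 TPM in SW1736 and at 81.3 and 78.1 in 8505C. The SW1736 folds of FDFT1 (-0.36) and DHCR7 (-0.40) turned to 0.07 and 0.03 relative to the median gene. Taking the 8 genes as one list, the median log2 fold in SW1736 was -0.38, beside -0.42 over all genes tested.

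**Figure D2:**
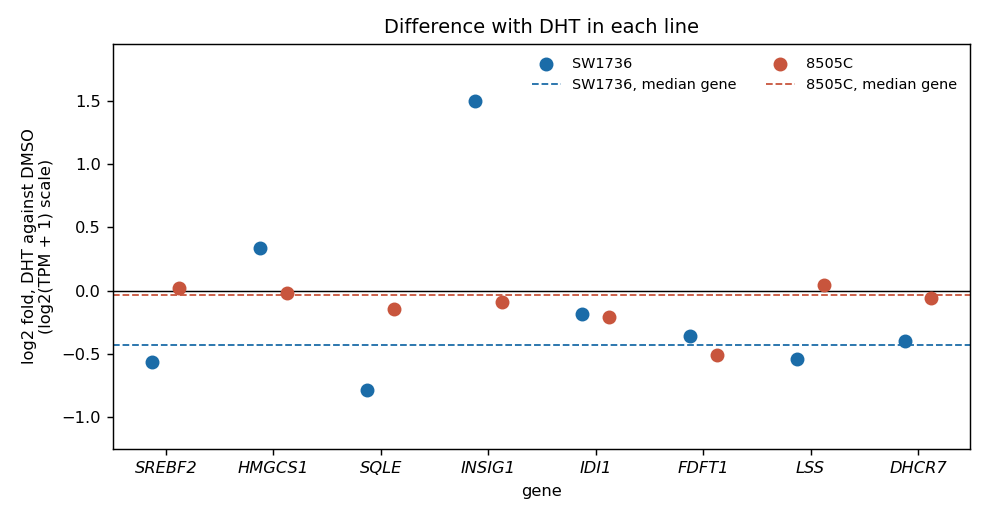
Log2 fold with DHT against DMSO on the log2(TPM + 1) scale for each gene, SW1736 in blue and 8505C in red, with 1 library per group. Dashed lines give the median gene of each line (-0.43 and -0.03), and INSIG1 in SW1736 (1.50) stands far above both.

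Changes relative to one another do not depend on how a library is scaled. In SW1736 the log2 change of TPM of INSIG1 differed from that of each of the other 7 genes by 1.20 to 2.40. All 7 pairs with INSIG1 were thus at least 2-fold apart, but they share its value and are not independent of each other. How often pairs among all genes tested were 2-fold apart was not counted. Of the 21 pairs without INSIG1, 1 was 2-fold apart, HMGCS1 with SQLE (1.20), and the median difference was 0.37. The ratio of HMGCS1 to SQLE mRNA went from 0.750 to 1.73 in SW1736 and from 0.615 to 0.671 in 8505C. In 8505C no pair of the 28 was 2-fold apart and the largest difference was 0.56.

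In 8505C, none of the 8 genes reached 2-fold with DHT in either direction, where 0.435% of all genes tested did. Their median log2 fold was -0.07, beside -0.03 over all genes tested. FDFT1 was the member farthest from 0, at -0.51, and 0.768% of the genes tested had a lower value. FDFT1 was also the gene whose coverage and FPKM disagreed most with the rest of its library: coverage per FPKM was 1.73 for FDFT1 in SW1736 with DMSO and from 3.30 to 3.67 for the other 7, and 1.52 beside 2.93 to 3.27 in 8505C with DMSO. How StringTie shared reads among FDFT1 transcripts was not tested. Over the 10 alternatives, which include coverage in place of TPM, the FDFT1 fold in 8505C ranged from -0.51 to -0.48. IDI1 came next, with the value given above.

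The lines were also compared with each other, first without DHT. All 8 genes were higher in 8505C, with a median log2 fold of 0.95 beside -0.05 over all genes tested, and together they made up 577 TPM in 8505C and 273 in SW1736. Of the 8, 4 were at least 2-fold higher in 8505C, where 9.97% of all genes tested were, and none was 2-fold lower, where 12.6% were. These were SQLE (log2 fold 2.26, a TPM ratio of 5.00), HMGCS1 (1.96, a ratio of 4.10), SREBF2 (1.20) and FDFT1 (1.04). The other members were DHCR7 at 0.85, LSS at 0.52, INSIG1 at 0.36 and IDI1 at 0.27. SQLE, HMGCS1, SREBF2 and FDFT1 were 2-fold higher under each of the 10 alternative settings, FDFT1 narrowly so (1.01 to 1.08).

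The proportions of the enzymes differed between the lines as well as their sum. FDFT1 mRNA was 3.94 times that of SQLE in SW1736 with DMSO and 1.63 times in 8505C by TPM, but 1.85 and 0.760 times by coverage, so which of the 2 was higher in 8505C depends on the unit. IDI1 mRNA was 3.20 times that of HMGCS1 in SW1736 and 0.947 times in 8505C by TPM, and 3.22 and 0.953 times by coverage. With DMSO the order of TPM levels in SW1736 was FDFT1, IDI1, DHCR7, LSS, SREBF2, SQLE, INSIG1 and HMGCS1, whereas in 8505C it was FDFT1, SQLE, DHCR7, SREBF2, HMGCS1, IDI1, LSS and INSIG1. By coverage FDFT1 took the third place in both, behind IDI1 and DHCR7 in SW1736 and behind SQLE and DHCR7 in 8505C, and the other 7 genes kept their order. Without replicates it is not known which neighbours in these orders differ beyond their spread, and IDI1 and DHCR7 in SW1736 had nearly the same level (44.7 and 44.6 TPM).

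With DHT the difference between the lines was wider than with DMSO for SQLE, SREBF2, LSS and DHCR7, narrower for HMGCS1, FDFT1 and IDI1, and of the opposite sign for INSIG1. That of DHCR7 was narrower too relative to the median gene (0.82 beside 0.89), and IDI1 then had the opposite sign (-0.13). SQLE stood at 2.90, SREBF2 at 1.78, HMGCS1 at 1.60, DHCR7 at 1.19, LSS at 1.10, FDFT1 at 0.90 and IDI1 at 0.25, whereas INSIG1 stood at -1.22. Thus 5 members were at least 2-fold higher in 8505C, where 24.7% of all genes tested were, and 1 was 2-fold lower, where 10.6% were. Relative to the median gene, which lay at 0.38 here, 3 were 2-fold higher (beside 14.4% of genes) and 1, INSIG1, was 2-fold lower (beside 16.3%). This comparison and those above share libraries, so their values are not independent of each other.

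**Figure D3:**
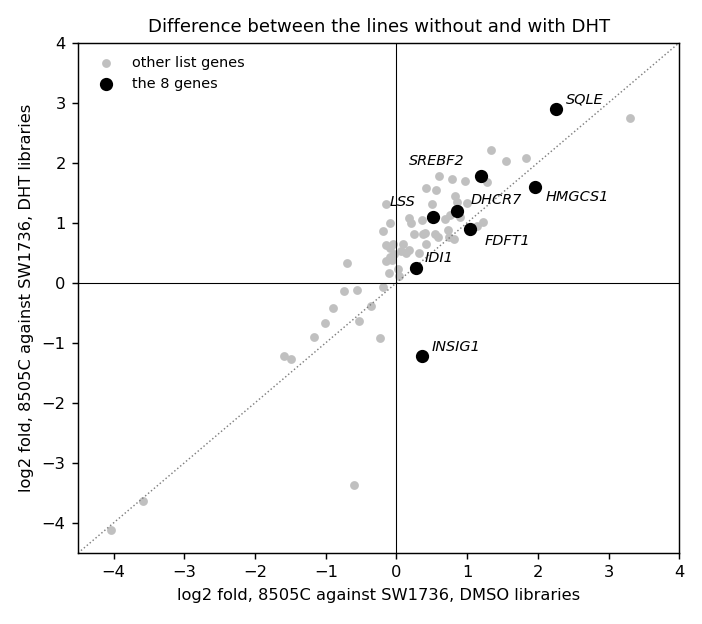
Log2 fold of 8505C against SW1736 on the log2(TPM + 1) scale, in the DMSO libraries (x axis) and in the DHT libraries (y axis), for the 8 genes (black, labelled) and for the other tested list genes (grey), with equality dotted. INSIG1 (0.36 and -1.22) is the only one of the 8 genes below 0 on the y axis.

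The DHT fold of 8505C minus that of SW1736 was -1.59 for INSIG1, the 1 member at least 2-fold apart, where 2.78% of all genes tested were 2-fold apart in that direction. It was 0.64 for SQLE, 0.58 for SREBF2, 0.58 for LSS, 0.34 for DHCR7, -0.02 for IDI1, -0.15 for FDFT1 and -0.36 for HMGCS1. The median gene lay at 0.41, and with 1 library per group none of these differences was tested.

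The rest of the pathway was read from 8 lists of sterol and related genes, which hold 67 genes besides the members, 66 of them tested. In SW1736, 1 of these 66 was at least 2-fold higher with DHT and 8 were 2-fold lower, beside 2.78% and 15.6% of all genes, and the median log2 fold was -0.41 beside -0.42. Relative to the median gene, 3 of them were 2-fold higher and 1 was lower, beside 4.78% and 4.06% of all genes. In 8505C none was 2-fold apart in either direction, beside 0.435% of all genes, and the median was -0.06 beside -0.03. Among the 7 mevalonate genes of SW1736, none was 2-fold apart, the median was -0.18 and all 7 lay above the median gene. Of the 66 list genes that are no members, 35 lay above it. The acetyl-CoA acetyltransferase ACAT2 (60.8 and 46.5 TPM, -0.38) had the largest mevalonate fold outside the members. The farnesyl diphosphate synthase FDPS (149.9 and 115.5 TPM, -0.37) came next, and the kinase PMVK stood at -0.09. ACAT2 and FDPS lay above the median gene by only 0.05 and 0.06. Among the genes of squalene and sterol steps LBR, a sterol reductase of the nuclear membrane, was 2-fold lower, from 54.8 to 17.5 TPM (-1.59), and was so relative to the median gene too (-1.16). MSMO1, which acts in sterol demethylation, stood at 0.21 and EBP, a sterol isomerase, at -0.16.

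Of 12 genes that process or control SREBP, INSIG1 was the only one 2-fold higher in SW1736 on the deposited scale. The ubiquitin-conjugating enzyme gene UBE2G2, chosen after its values were seen, went from 38.5 to 63.1 TPM (0.70) and was 2-fold higher relative to the median gene (1.13). INSIG2, the second INSIG gene, went from 17.4 to 14.2 TPM there and from 11.8 to 8.83 in 8505C. MBTPS2, the second protease that frees SREBP, was the 1 gene 2-fold lower (26.4 to 10.2 TPM, -1.29), short of 2-fold relative to the median gene (-0.87), and MBTPS1, the first, stood at -0.91. RNF139, a ubiquitin ligase of the endoplasmic reticulum, stood at -0.21. Of the 7 other sterol-responsive genes and SREBP partners, NFYB (-1.20), SP1 (-1.15) and NFYA (-1.15) were 2-fold lower in SW1736 (beside 15.6% of all genes), all 3 short of it relative to the median gene (-0.77, -0.72 and -0.72). STARD4, a sterol carrier, went from 0.705 to 1.78 TPM (0.70, or 1.13 relative to the median gene). Both values are near 0 TPM, and STARD4 passed the filter on low values through 8505C. Its SW1736 fold depends on the amount added to TPM: 1.22 with 0.1 TPM and 0.25 with 5 TPM.

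**Figure D4:**
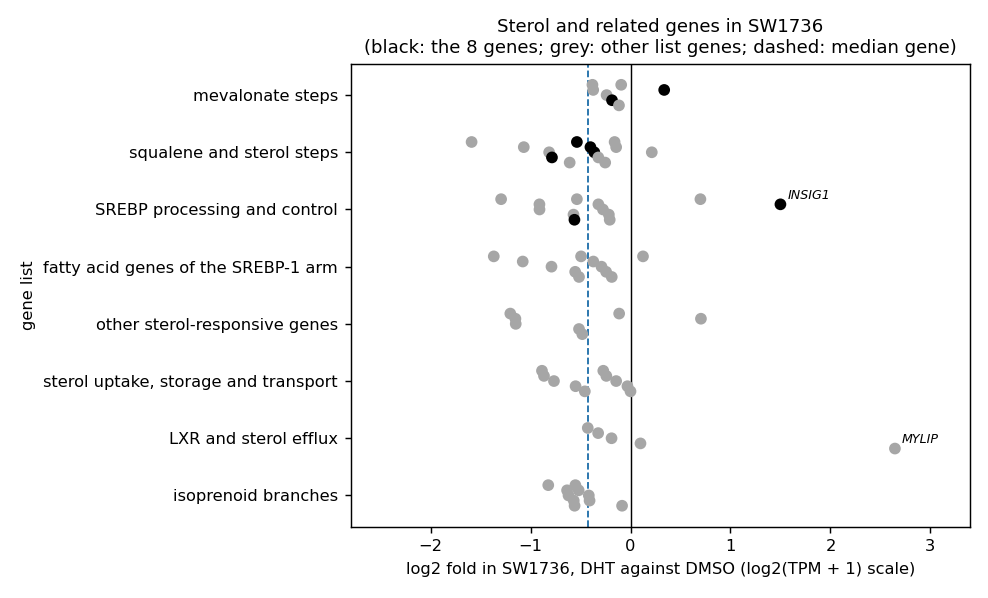
Log2 fold in SW1736 with DHT against DMSO on the log2(TPM + 1) scale for every tested gene of the 8 lists, one point per gene, the 8 genes in black, with names for those at least 2-fold higher and the median gene (-0.43) dashed. Most points lie near the median gene, and INSIG1 (1.50) and MYLIP (2.64) are the only points at 2-fold or more to the right.

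Genes outside sterol synthesis were read in the same way. The fatty acid genes of the SREBP-1 arm had 2 of 11 members 2-fold lower in SW1736 and none higher, beside 15.6% and 2.78% of all genes, with a median of -0.49 beside -0.42. The 2 were the acetyl-CoA carboxylase ACACA (25.1 to 9.13 TPM, -1.37) and the elongase ELOVL6 (10.4 to 4.42 TPM, -1.08). Both were short of 2-fold relative to the median gene (-0.94 and -0.65). FASN, the fatty acid synthase, stood at -0.79, and ACSL3, which activates fatty acids, at 0.12. MYLIP, a ubiquitin ligase induced by the sterol sensor LXR, was the 1 gene of the 66 that was 2-fold higher in SW1736 on the deposited scale, from 8.16 to 56.3 TPM (2.64), beside 5.04 and 4.56 TPM in 8505C. Of the other 4 tested genes of LXR and sterol efflux, LPCAT3 was the farthest from 0 at -0.43, and the cholesterol exporter ABCA1 went from 15.7 to 16.9 TPM. No gene of sterol uptake, storage and transport (10 genes) or of the isoprenoid branches (10 genes) was 2-fold apart in SW1736. Of all genes tested, 2.78% were 2-fold higher there and 15.6% lower. The medians of these lists were -0.36 and -0.56, beside -0.42 over all genes tested. LRP8, a lipoprotein receptor, stood at -0.89 in SW1736 and the esterifying enzyme SOAT1 at -0.87. NUS1, a subunit of the dolichol-making enzyme, stood at -0.82 and the prenyltransferase subunit PGGT1B at -0.63.

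Likeness to the mean profile of the 8 genes was measured as the Euclidean distance over 4 libraries between log2(TPM + 1) values centred on each gene's mean. Of 9754 other genes averaging 5 TPM or more, the nearest were MAGEA6 (distance 0.0297), PERP (0.0325), CCDC167 (0.0607), CCDC58 (0.0615) and CASC3 (0.0616). MAGEA6 has near-identical copies, so its reads may be split. All 5 had about 1 log2 unit more mRNA in 8505C and little difference with DHT, as PERP shows with 37.7 and 34.7 TPM in SW1736 and 77.7 and 72.5 in 8505C. The members themselves lay farther from their mean profile, from 0.204 for DHCR7 to 1.59 for SQLE and 1.88 for INSIG1. Of the genes that are no members, 98 were nearer to that profile than the closest member, and 8238 were nearer than INSIG1.

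Some reads of these genes may belong to neighbours. In GENCODE 29, an antisense or opposite-strand gene overlaps the deposited span of SREBF2, HMGCS1, IDI1, FDFT1 and LSS, and none overlaps SQLE, INSIG1 or DHCR7. Whether reads were counted by strand is not given in the sources used here. LSS has a further entry on an alternate haplotype, listed at 0 in all libraries.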

How the data were processed

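mRNA of 4 libraries was measured, made from RNA isolated on RNeasy Mini columns with the Universal Plus mRNA-Seq kit, per the labels' protocols. The submitters' processing notes name bcl2fastq 2.20, StringTie and the hg38 build. No aligner, annotation or StringTie version is given in these sources. The authors' TPM adds up to 1000000 in a library, so a gain of abundant mRNAs lowers all others. FPKM, also deposited, is per kilobase and mapped fragments. Coverage as deposited is an unscaled mean read depth. No counting interval is given because the files hold no read numbers.

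Rows of 1 identifier were summed. Of 26485 identifiers 25404 were matched to RefSeq or GENCODE 29 genes, 19083 of them protein-coding, and those averaging 1 TPM or more were compared as differences of log2(TPM + 1) with a threshold of 2-fold, in Python 3.11.15 with pandas 2.3.3 and numpy 2.4.6. No test was made, since each group has 1 library, and a fit with the lines as replicates was not run. Named besides the members were list genes 2-fold apart with DHT and, at a mean of at least 5 TPM, the 2 of each list with the largest SW1736 fold and the 2 with the largest difference between the DMSO libraries. The members and lists were chosen with earlier results of these data known. Further genes of sterol uptake and synthesis are not reported here. Alternatives were other pseudocounts, filters, scalings, units and thresholds.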

Additional observations from a re-analysis of the deposited data

Results flagged for a closer look

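With 1 library per group, a gene drew attention where its DHT folds had opposite signs in the 2 lines, a difference that was not tested. Of 37 genes named by rule this held for 11, 4 of them members, and it held for 36.9% of all genes tested, so nothing is read from these counts. The fold of 8505C minus that of SW1736 was -1.59 for INSIG1, 0.58 for SREBF2, 0.58 for LSS and -0.36 for HMGCS1. In the 8505C libraries these 4 folds lay between -0.09 and 0.04, so their sign there is that of a value near 0. Relative to the median gene of each line, HMGCS1 was above 0 in both (0.77 and 0.01), whereas INSIG1 (1.93 and -0.05), SREBF2 (-0.13 and 0.05) and LSS (-0.11 and 0.08) were not. Of the other 7, MYLIP stood at -2.76, FASN at 0.87, FDPS at 0.49, PMVK at 0.37, SCARB1 at 0.25, EBP at 0.23 and ACSL3 at -0.19.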

How the results depend on the processing

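Each of the 8 genes was recomputed under 10 alternatives for 4 comparisons and the difference between the lines, 400 values, of which 383 kept their sign and their side of the threshold. Under the alternatives the SW1736 fold ranged from 1.30 to 1.93 for INSIG1, 0.27 to 0.77 for HMGCS1, -0.58 to -0.13 for SREBF2, -0.84 to -0.36 for SQLE and -0.55 to -0.11 for LSS. With DHT, 3 members instead of 5 were 2-fold higher in 8505C than in SW1736 with FPKM and likewise 3 with median scaling, where LSS and DHCR7 fell short. At a threshold of 1.5-fold, 1 member instead of 0 was lower in SW1736 with DHT, and 1 instead of 0 had a higher DHT fold in 8505C than in SW1736, SQLE in both cases. The background moved more: genes 2-fold higher and lower in SW1736 numbered 326 and 1825, but 560 and 476 with median scaling, 687 lower with a pseudocount of 5 TPM and 695 lower with FPKM, and 551 and 4481 at 1.5-fold. In 8505C the 32 higher and 19 lower genes became 91 and 35 with a pseudocount of 0.1 TPM, 13 and 12 with one of 5 TPM, 149 and 62 at 1.5-fold, and 75 and 42 with all annotated genes, and 19 were higher at a mean of 5 TPM. Between the DMSO libraries the 1169 and 1480 genes became 724 and 877 with a pseudocount of 5 TPM and 2216 and 2834 at 1.5-fold. Between the DHT libraries the 2893 and 1245 genes ranged from 1693 to 4798 and from 829 to 2005. The labels give no replicate numbers to pair by. A fit with the line as a block, whose 1 residual degree of freedom is the difference between the lines itself, was not run. Depth sets no interval here, since read numbers are unknown.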

Other observations

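Several genes that move sterols differed between the DMSO libraries. NPC2, which carries cholesterol out of lysosomes, had 239 TPM in SW1736 and 19.1 in 8505C (log2 fold -3.58), and the exporter ABCA1 had 15.7 and 0.0133 TPM. The phospholipid-remodelling gene LPCAT3 was lower in 8505C too (51.2 and 16.3 TPM). In the opposite direction, STARD4 had 0.705 TPM in SW1736 and 15.8 in 8505C, and the lipoprotein receptor gene SCARB1 had 33.1 and 121 TPM. With DHT these 5 genes kept the same direction between the lines, with NPC2 at 234 and 17.9 TPM, ABCA1 at 16.9 and 0.0260, LPCAT3 at 37.8 and 15.6, STARD4 at 1.78 and 17.7, and SCARB1 at 29.9 and 130.2. Under the 10 alternatives the DMSO fold of NPC2 ranged from -3.64 to -3.34. ABCA1 and STARD4 were near 0 TPM in 1 line and passed the filter on low values through the other, so their folds depend on the pseudocount: -4.04 and 3.30 at 1 TPM, and -2.05 and 1.87 at 5 TPM. No test was made, and how the levels of these genes bear on sterol content was not measured.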
